A study of Mus musculus with 4 samples.

Results

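DNA methylation in mammals is set, copied and removed by a small group of enzymes, and the 10 genes of that group described here were the maintenance methyltransferase gene Dnmt1 with its partner Uhrf1, the de novo methyltransferase genes Dnmt3a and Dnmt3b with their cofactor Dnmt3l, the dioxygenase genes Tet1, Tet2 and Tet3, the DNA glycosylase gene Tdg, and Mbd3. They were taken by name from the 27597 genes listed in at least 1 of 3 deposited tables of RNA-seq levels, and all 10 were listed. The cells were mouse embryonic fibroblasts of strain OGXICR, isolated from skin at D13.5 with the epidermis removed, and infected with lentivirus of a doxycycline-inducible system. Of the 4 groups, the first received an empty vector and the second SKM, the transcription factors SOX2, KLF4 and c-MYC. The third received OSKM, which adds OCT4 to these, and the fourth G3SKM, which adds GATA3. The study asked which factors can bring somatic cells to pluripotency beside OCT4, SOX2, KLF4 and c-MYC. No source used here gives the time between infection and harvest or the share of cells that carried every factor. Each group had 1 value per gene, which per the labels stands for 2 replicates. No spread between replicates was therefore known, and no test of any difference was possible.

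DNMT1 copies CpG methylation onto the new strand after replication, and UHRF1 binds the half-methylated sites and brings DNMT1 to them. DNMT3A and DNMT3B methylate sites that carried no mark, and DNMT3L, which has no catalytic activity, stimulates them in germ cells and early embryos. The TET enzymes oxidise methylated cytosine, TDG excises the oxidised bases and base excision repair puts back cytosine. MBD3 carries a methyl-binding domain by descent but acts as a subunit of the NuRD chromatin complex. In fibroblasts that turn into pluripotent cells, the promoters of pluripotency genes lose methylation, and Dnmt3b, Dnmt3l and Tet1 belong to the genes that pluripotent cells are known to express highly.

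Levels are RPKM as deposited, reads scaled to depth and gene length, where the length was that of the whole gene, so long introns lower the value of a gene. The recovered depth was about 111000000 reads in empty vector, 54000000 with SKM, 74700000 with OSKM and 102000000 with G3SKM, and bounds in brackets are 95% intervals that cover counting error only. The rule of size for a call, higher or lower, was a log2 ratio of 1 or more in absolute value after adding 0.01 RPKM to each level, for genes that reached 0.1 RPKM in either group. All 14 fibroblast markers were above 0 in all 4 groups. Their summed level per kilobase of exon was 2938 RPKM in empty vector, 2040 with SKM, 1228 with OSKM and 1333 with G3SKM. Col1a1 alone gave 851, 903, 368 and 426 RPKM of these sums. In OSKM against empty vector 10 of the 14 were lower and 2 higher, beside 8.95% and 17.5% of all genes compared. The 2 were Dcn, at 1.71 RPKM in empty vector and 8.01 with OSKM, and Lum, at 1.11 and 3.60. The groups also differed in the genes of the delivered factors: Sox2 stood at 0.260 RPKM in empty vector, 187 with SKM, 110.5 with OSKM and 70.7 with G3SKM. Klf4 stood at 6.26, 19.3, 13.9 and 8.55 RPKM in this order. Myc was highest in empty vector, at 16.0, 11.9, 10.5 and 6.31 RPKM. Pou5f1, which encodes OCT4, reached 3.69 RPKM with OSKM, and Gata3 reached 0.571 with G3SKM. No source used here separates vector transcripts from those of the cells' own genes, so these values do not measure delivery. Sox2, Klf4 and Myc each stood lower in OSKM and G3SKM than in SKM. An added factor therefore cannot be told apart from a lower level of the shared ones. In bulk samples, fewer cells that express a gene and less RNA per cell cannot be told apart either. Ratios against the SKM library followed the GC content of the transcript (across genes, Spearman's rho was 0.446 with empty vector, -0.629 with OSKM as numerator and -0.657 with G3SKM). Ratios without that library did not (0.0207 in G3SKM and 0.0400 in OSKM over empty vector, and -0.00203 between OSKM and G3SKM). Values with this trend removed are given for members and named calls that they change. Genes outside the members that they bring past the rule are named only in part.

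The promoters of 4 members are shown because the values below turn on these genes: Dnmt1 and Uhrf1 as the maintenance pair, Dnmt3b, which had the largest ratio to empty vector in SKM and G3SKM, and Tet2, which among members past the filter had the largest ratio of OSKM to each other group. Each sequence is the 250 bases before an annotated start, from RefSeq on GRCm38.p6 and read 5′ to 3′ on the strand of the gene, and where a gene has several starts it is the window with the most CpG. For Dnmt1 and Uhrf1 this window lies downstream of other annotated starts, so its matches fall within the gene as read from those. The windows at those other starts held no E2F or KLF match. The positions are chr9:20952624-20952873 on the minus strand for Dnmt1, chr17:56304063-56304312 on the plus strand for Uhrf1, chr2:153649199-153649448 on the plus strand for Dnmt3b and chr3:133544391-133544640 on the minus strand for Tet2. Capitals mark matches to an E2F motif (TTTCGCGC, TTTGGCGC or TTTCCCGC) or a KLF motif (GGGCGGG), searched on both strands.
Dnmt1: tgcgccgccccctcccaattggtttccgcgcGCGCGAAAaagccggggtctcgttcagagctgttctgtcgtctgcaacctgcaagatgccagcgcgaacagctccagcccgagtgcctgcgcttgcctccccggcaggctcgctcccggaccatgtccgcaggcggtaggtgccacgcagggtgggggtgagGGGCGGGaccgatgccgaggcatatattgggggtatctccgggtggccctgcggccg
Uhrf1: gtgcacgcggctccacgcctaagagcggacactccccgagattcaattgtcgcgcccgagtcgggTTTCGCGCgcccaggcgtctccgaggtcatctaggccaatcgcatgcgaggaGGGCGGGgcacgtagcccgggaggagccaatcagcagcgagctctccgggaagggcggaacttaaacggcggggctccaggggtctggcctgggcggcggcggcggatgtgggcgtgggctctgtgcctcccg
Dnmt3b: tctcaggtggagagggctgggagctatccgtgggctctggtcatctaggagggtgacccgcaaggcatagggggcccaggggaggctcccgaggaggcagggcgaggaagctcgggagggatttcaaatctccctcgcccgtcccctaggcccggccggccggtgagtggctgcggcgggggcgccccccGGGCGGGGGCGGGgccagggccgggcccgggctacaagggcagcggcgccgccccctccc
Tet2: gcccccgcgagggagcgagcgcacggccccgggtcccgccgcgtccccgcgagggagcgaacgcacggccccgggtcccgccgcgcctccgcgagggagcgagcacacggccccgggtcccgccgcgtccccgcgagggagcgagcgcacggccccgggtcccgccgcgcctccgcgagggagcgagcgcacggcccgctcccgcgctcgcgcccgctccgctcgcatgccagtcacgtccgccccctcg

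In these windows the E2F match began 219 bases before the start used for Dnmt1 and 185 bases before that used for Uhrf1, and no other window of a member held one. E2F factors are known to drive genes of DNA replication. Of all 32851 promoter windows of this length, 1.53% held the motif. The KLF match is commoner, in 23.4% of all windows, and lay in the CpG-richest window of 5 of the 10 members, with overlapping matches 60 and 54 bases before the start of Dnmt3b. Tet2 had none, although its window held 51 CpG, percentile 99.95 of all windows, where the median window held 6. All 10 members had at least 1 window, 17 in all. The CpG count of the richest window ran from 5 for Dnmt3l, the single member under the median, to 51 for Tet2. An octamer (ATTTGCAT), a SOX motif (CATTGTT) and a GATA motif (AGATAA), which are known letters of OCT4, SOX2 and GATA3, were in none of the 17 windows of members and in 1.60%, 3.29% and 9.99% of all windows. An E-box (CACGTG) lay in 3 of the 17 windows, the one of Tdg among them, and in 6.02% of all. A match describes the letters of this window only.

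The members fell into those that were higher in every group with factors, those that followed a single group, and those that moved little. Of the 8 members past the filter, 4 were higher in SKM than in empty vector (Dnmt3a, Dnmt3b, Tet2 and Tet3), where 20% of the genes compared were higher and 13.2% lower. In OSKM against empty vector 3 were higher (Dnmt3b, Tet2 and Tet3), with 17.5% of genes higher and 8.95% lower, and in G3SKM against empty vector the same 4 as in SKM, with 21% higher and 7.81% lower. In OSKM against SKM 1 member was higher, Tet2, beside 11.2% of genes higher and 6.94% lower. In G3SKM against SKM 0 of 8 were called, beside 11.7% of genes higher and 3.67% lower. In OSKM against G3SKM 1 was called, again Tet2, beside 4.74% of genes higher and 8.10% lower. No member past the filter was lower in any of the 6 comparisons. Tet1 and Dnmt3l were under the filter in all groups, and their values are given without a call. Comparisons with empty vector share that sample, as those with SKM share SKM, so their counts are not independent of each other.

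The median log2 ratio of the 8 members was 1.00 in SKM against empty vector, 0.94 in OSKM against empty vector and 0.80 in G3SKM against empty vector, and the medians over all genes compared were 0.17, 0.28 and 0.28. Relative to these medians Tet2 in SKM (0.93) and Dnmt3a (0.72) and Tet3 (0.86) in G3SKM were no longer called, and the other 8 calls against empty vector remained. Of the calls over all genes against empty vector, the higher ones made up 60.4% for SKM, 66.1% for OSKM and 72.9% for G3SKM, and 49.3%, 50.02% and 57.03% once ratios were centred on these medians. Under a stricter rule that adds 1 RPKM to both values and keeps genes at 1 RPKM or more, 0 members were called in any comparison. Of the 4 or 5 members that remained, Dnmt1, Uhrf1, Tdg and Mbd3 were not called with the smaller addition either, and Tet3 had a log2 ratio of 0.63 in SKM against empty vector.

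**Figure D1:**
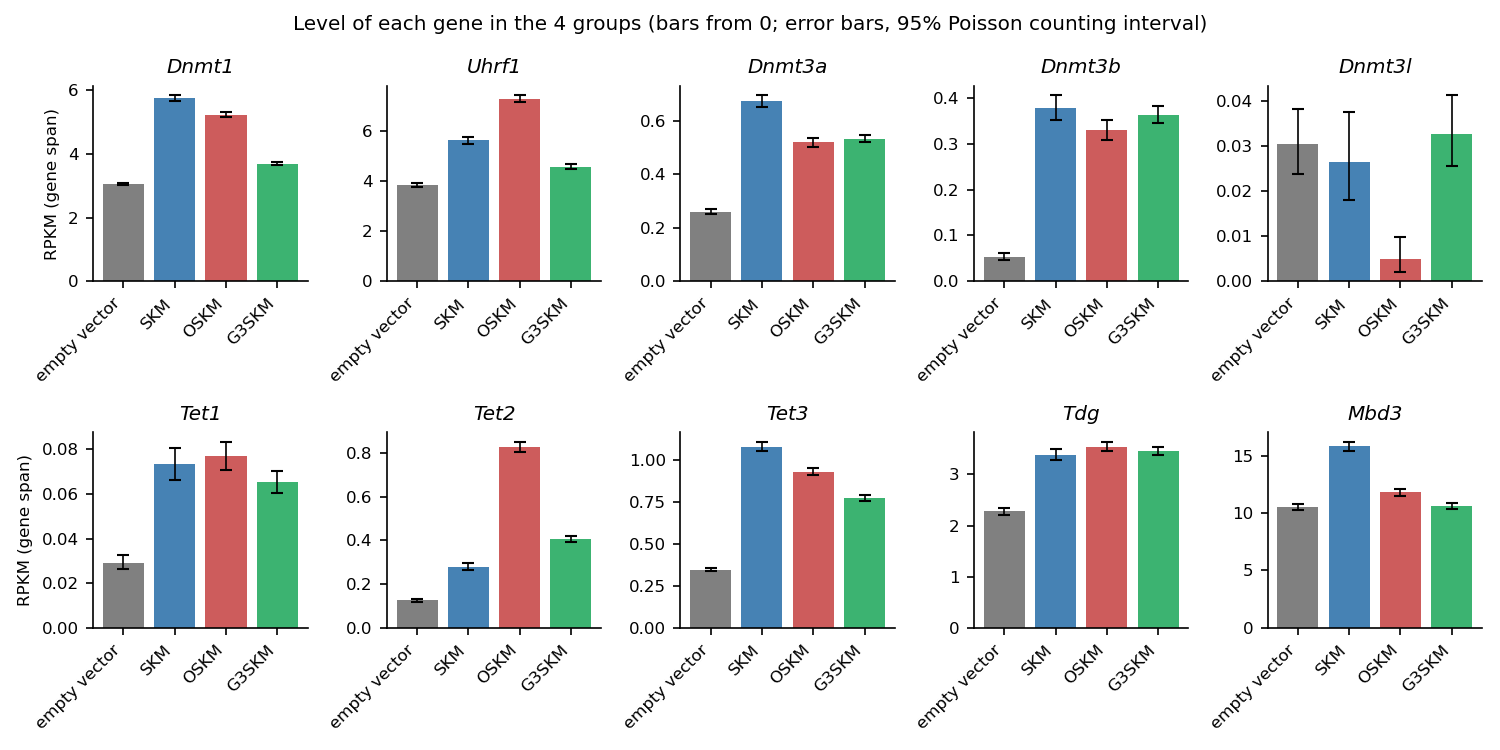
Level of each of the 10 genes in the 4 groups, in deposited RPKM per kilobase of gene span on linear axes that start at 0; each bar is 1 value and error bars are 95% counting intervals. Dnmt3a, Dnmt3b, Tet1 and Tet3 were lowest in empty vector and near each other in the groups with factors, Tet2 peaked in OSKM at 0.827 RPKM, and Dnmt3l was lowest in OSKM at 0.00494 RPKM.

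The maintenance genes were the most abundant of the methylating enzymes, and none of their folds passed the rule. Dnmt1 stood at 3.05 RPKM in empty vector, 5.74 with SKM, 5.23 with OSKM and 3.69 with G3SKM. It was highest in SKM and lowest in empty vector, with counting intervals that did not overlap between any groups. Its fold over empty vector was 1.88 in SKM, 1.71 in OSKM and 1.21 in G3SKM, each under the rule. Uhrf1 stood at 3.85 RPKM in empty vector, 5.62 with SKM, 7.28 with OSKM and 4.56 with G3SKM. It was highest in OSKM, and again no intervals overlapped. Its fold over empty vector was 1.46 in SKM, 1.89 in OSKM and 1.18 in G3SKM. With the GC trend removed, the log2 ratio of Dnmt1 in SKM against empty vector went from 0.91 to 0.53 and that of Uhrf1 from 0.54 to 0.25. The log2 ratio of OSKM to SKM for Dnmt1 then turned from -0.14 to 0.18, so that OSKM and no longer SKM was highest. In the comparison that leaves out both SKM and empty vector, OSKM was above G3SKM by 1.42-fold (1.39 to 1.44) for Dnmt1 and 1.59-fold (1.55 to 1.64) for Uhrf1, both under the rule.

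Genes of DNA replication followed this pair in some comparisons and not in others. Dnmt1 and Uhrf1 are known to be transcribed with the replication genes in dividing cells. The median log2 ratio of the 22 replication genes was 0.46 in OSKM against G3SKM, where Dnmt1 had 0.50 and Uhrf1 0.67, and the median of all genes was -0.00122. It was 0.54 in OSKM against empty vector, beside 0.78 for Dnmt1 and 0.92 for Uhrf1, and 0.23 in G3SKM against empty vector, beside 0.27 and 0.24, where all genes had 0.28. In SKM against empty vector it was -0.02, or 0.25 with the GC trend removed, beside 0.91 and 0.54 as deposited. In OSKM against SKM it was 0.43, beside -0.14 for Dnmt1 and 0.37 for Uhrf1. Of the 22, 2 were higher and 2 lower in SKM, 2 higher in OSKM and 2 higher in G3SKM, all against empty vector. Beside these stand 20% of all genes higher and 13.2% lower in SKM, 17.5% and 8.95% in OSKM, and 21% and 7.81% in G3SKM. Against SKM 1 was higher in OSKM and 2 in G3SKM, beside 11.2% and 11.7% of all genes. Ccne2 was among them in both, and 0 of these calls remained with the GC trend removed. Cdt1, which licenses replication origins, had 5.32 RPKM in empty vector, 17.2 with SKM, 13.55 with OSKM and 9.92 with G3SKM. It rose in SKM and OSKM, as did Mcm7, a helicase subunit, whose call in SKM was lost with the GC trend removed (0.82). Rrm1, the large subunit of ribonucleotide reductase, and Ccne2, a cyclin of the entry into S phase, fell in SKM, and both calls were lost once the GC trend was removed (-0.69 and -0.25). Gins1 and Cdc6 were the pair higher in G3SKM, at log2 ratios of 1.04 and 1.00. The part of cell division in the levels of Dnmt1 and Uhrf1 was not tested.

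The de novo genes differed from each other. Dnmt3b stood at 0.0536 RPKM in empty vector (228 reads), 0.378 with SKM (782 reads), 0.329 with OSKM (941 reads) and 0.363 with G3SKM (1412 reads). The 3 groups with factors lay close together and far above empty vector. The fold over empty vector was 7.05 (6.08 to 8.21) in SKM, 6.14 (5.31 to 7.12) in OSKM and 6.78 (5.89 to 7.83) in G3SKM. Among the groups with factors the intervals of SKM and G3SKM overlapped, as did those of OSKM and G3SKM. Under 0.1 RPKM in empty vector, Dnmt3b passed the filter only through the groups with factors. It was called in each comparison with empty vector under 10 of 10 settings that kept it past the filter. These settings rework the same values, and those with a filter at 1 RPKM left it out, so this count adds no independent evidence. With the GC trend removed its log2 ratio was 2.32 in SKM, 2.38 in OSKM and 2.50 in G3SKM.

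Dnmt3a stood at 0.261 RPKM in empty vector, 0.675 with SKM, 0.520 with OSKM and 0.533 with G3SKM. It was lowest in empty vector and highest in SKM, and the intervals of OSKM and G3SKM overlapped. Its fold over empty vector was 2.58 (2.46 to 2.71) in SKM, 1.99 (1.90 to 2.08) in OSKM and 2.04 (1.95 to 2.13) in G3SKM. The last 2 folds lie on either side of the rule, at log2 ratios of 0.97 and 1.00, and are not shown to differ: the log2 ratio of OSKM to G3SKM was -0.04. The call in G3SKM was lost with the GC trend removed (0.96).

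Dnmt3l had few reads in all groups and its lowest value in OSKM. It stood at 0.0303 RPKM in empty vector (73 reads), 0.0265 with SKM (31 reads), 0.00494 with OSKM (8 reads) and 0.0327 with G3SKM (72 reads). The intervals of the 3 other groups overlapped, and OSKM lay under all of them. Its level in OSKM was 6.14-fold lower than in empty vector (2.96 to 14.7), 5.36-fold lower than in SKM (2.41 to 13.49) and 6.62-fold lower than in G3SKM (3.19 to 15.9). Of these few reads some may belong to Aire, which overlaps Dnmt3l on the other strand and had 1, 2, 4 and 18 reads in the same order of groups. No source used here gives the strand setting of the counting, so reads of both genes cannot be told apart.

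The same holds for Dnmt3b at a smaller size. The antisense transcript Dnmt3bos had 13 reads in empty vector, 72 with SKM, 69 with OSKM and 55 with G3SKM, which was 3.90% to 9.21% of the reads of Dnmt3b. Dnmt3c, a close copy that methylates young retrotransposons in male germ cells, had 7.02% to 9.72% of the reads of Dnmt3b, with 16 reads in empty vector, 76 with SKM, 74 with OSKM and 112 with G3SKM.

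Tet2 was the single member past the filter that was called between groups with factors. It stood at 0.125 RPKM in empty vector (1132 reads), 0.279 with SKM (1229 reads), 0.827 with OSKM (5036 reads) and 0.405 with G3SKM (3347 reads). OSKM was highest and empty vector lowest, and no intervals overlapped. Against empty vector the fold was 2.23 (2.06 to 2.42) in SKM, 6.61 (6.20 to 7.06) in OSKM and 3.24 (3.02 to 3.47) in G3SKM. OSKM was above SKM by 2.96-fold (2.78 to 3.16) and above G3SKM by 2.04-fold (1.96 to 2.14). G3SKM was above SKM by 1.45-fold (1.36 to 1.55), under the rule.

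The transcript of Tet2 has a low GC content (45.4%, against a median of 49.2% over all genes), and the SKM library ran low at low GC. With the trend removed, the log2 ratio of OSKM to SKM went from 1.53 to 1.21 and that of SKM to empty vector from 1.10 to 1.43, while that of OSKM to empty vector was 2.63 before and 2.68 after. The difference between OSKM and G3SKM sat at the edge of the rule, with a log2 ratio of 1.01. It was called under 9 of 10 settings, with values of 0.88 to 1.03, and lost with 0.1 RPKM added to both values.

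Tet3 stood at 0.347 RPKM in empty vector, 1.08 with SKM, 0.932 with OSKM and 0.777 with G3SKM. It was lowest in empty vector, highest in SKM, and no intervals overlapped. The fold over empty vector was 3.12 (2.99 to 3.25) in SKM, 2.68 (2.58 to 2.79) in OSKM and 2.24 (2.15 to 2.33) in G3SKM. With the GC trend removed the log2 ratio of Tet3 in SKM went from 1.61 to 1.32 and stayed past the rule, while that of OSKM to SKM turned from -0.21 to 0.05, so that SKM was no longer highest. Tet1, the family member best known from pluripotent cells, stayed under the filter at 0.0292 RPKM in empty vector (339 reads), 0.0733 with SKM (414 reads), 0.0770 with OSKM (601 reads) and 0.0654 with G3SKM (693 reads). Its fold over empty vector was 2.51 (2.17 to 2.91) in SKM, 2.63 (2.30 to 3.02) in OSKM and 2.24 (1.96 to 2.56) in G3SKM. The interval of SKM overlapped those of OSKM and G3SKM, and those of OSKM and G3SKM lay just apart.

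Markers of other cells were measured beside these ratios, since Tet2 is known from blood cells and the culture was not sorted. The 10 macrophage markers summed, per kilobase of exon, to 119 RPKM in empty vector, 13.6 with SKM, 5.26 with OSKM and 10.8 with G3SKM. Lyz2 alone gave 62.1, 5.18, 1.05 and 4.16 RPKM of these sums. None of the 10 was at 0 in any group. The 10 pluripotency markers summed to 0.132 RPKM in empty vector, where 6 were at 0, to 1.87 in SKM, where 3 were at 0, to 16.7 in OSKM, where 0 were at 0, and to 2.16 in G3SKM, where 2 were at 0. L1td1 and Fgf4 made up most of the sum in OSKM, at 8.03 and 6.44 RPKM, and Nanog stood at 0.436 there. Lin28a was lower in OSKM (0.308) than in SKM (0.574) and G3SKM (0.653). The 6 endothelial markers summed to 0.390, 0.726, 3.32 and 0.976 RPKM in the same order of groups, and none was at 0. Tek made up most of the sum in OSKM, at 0.0439, 0.397, 2.80 and 0.560 RPKM in this order, while Emcn was highest in empty vector and Tie1 in SKM. The 10 keratinocyte markers summed to 1.76 RPKM in empty vector, where 3 were at 0, and to 89.4 in SKM, 44.3 in OSKM and 61.1 in G3SKM, where 0 were at 0. Krt14 alone gave 84.3, 41.1 and 56.9 RPKM of these sums. The part of cells of these types in the levels of Tet2, Dnmt3a and Dnmt3b was not tested.

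**Figure D2:**
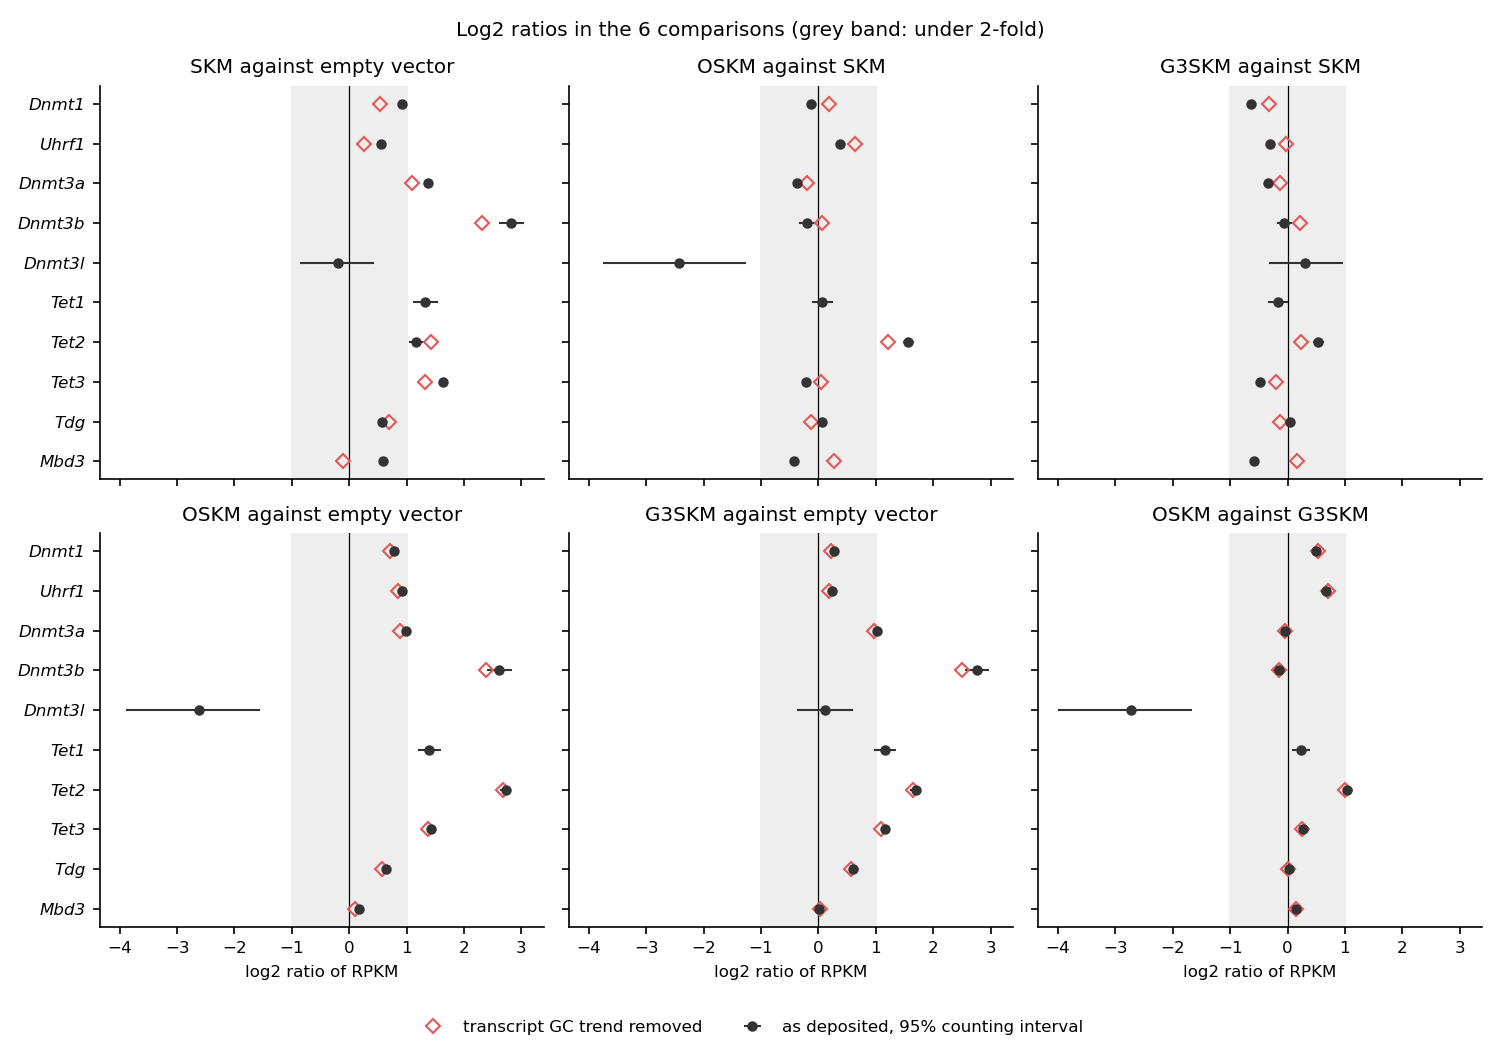
Log2 ratio of RPKM for each of the 10 genes in the 6 comparisons, as deposited (filled circles, with 95% counting intervals) and with the transcript GC trend removed (open diamonds; none for Tet1 and Dnmt3l, which were under the filter). In OSKM against SKM and in OSKM against G3SKM, Tet2 is the single gene at or past 2-fold on the higher side, and Dnmt3l the single gene past it on the lower side.

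Tdg and Mbd3 moved little. Tdg stood at 2.28 RPKM in empty vector, 3.38 with SKM, 3.54 with OSKM and 3.46 with G3SKM. The 3 groups with factors overlapped in their intervals, at 1.49-fold, 1.56-fold and 1.52-fold over empty vector, under the rule. The processed pseudogene Tdg-ps carried 66.9% to 73.9% as many reads as Tdg, from 2766 to 4938 reads, so the level of Tdg rests on how the authors' counting split reads between near-identical copies. Mbd3 stood at 10.5 RPKM in empty vector, 15.8 with SKM, 11.8 with OSKM and 10.6 with G3SKM. It was highest in SKM, at 1.501-fold over empty vector (1.45 to 1.55), and the intervals of empty vector and G3SKM overlapped. Its transcript has the highest GC content of the members (62.9%), and with the GC trend removed the log2 ratio of SKM to empty vector went from 0.58 to -0.11, so that SKM was no longer highest.

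Levels of different genes can be compared only per length, so the recovered reads were divided by exon length. On this exon scale the order was the same in all 4 groups for the first 5 genes: Mbd3, Dnmt1, Uhrf1, Tdg and Tet3. Mbd3 stood at 37.1 RPKM in empty vector, 55.7 with SKM, 41.6 with OSKM and 37.4 with G3SKM, and Dnmt1 at 21.8, 41.0, 37.3 and 26.4. Tet2 had rank 7 in empty vector, 8 in SKM and G3SKM, and 6 in OSKM, where it stood above Dnmt3a and Dnmt3b. Tet1 and Dnmt3l held the last 2 places in every group. Dnmt1 exceeded the 3 TET genes together in every group: the ratio of their sum to Dnmt1 was 0.129 in empty vector, 0.198 with SKM, 0.266 with OSKM and 0.262 with G3SKM.

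On the exon scale all 10 members passed the filter of 0.1 RPKM, and Tet1 and Dnmt3l could be called. Tet1 was then higher in SKM, OSKM and G3SKM than in empty vector, at log2 ratios of 1.29, 1.35 and 1.12. Dnmt3l was lower in OSKM than in empty vector, SKM and G3SKM, at -2.33, -2.14 and -2.43. At 0.0358 RPKM in OSKM, from 8 reads, Dnmt3l was under the filter there and passed only through the other group. Its calls are thus set in part by the filter. In all, 5 members were higher in SKM than in empty vector, where 22.9% of all genes on this scale were higher and 13.8% lower. In OSKM 4 were higher and 1 lower (22.1% and 9.51% of genes), and in G3SKM 5 were higher (24.6% and 8.38%). In OSKM 1 was higher and 1 lower than in SKM (13.9% and 8.09%), and likewise than in G3SKM (6.80% and 9.59%). Between G3SKM and SKM 0 were called (13.1% and 3.89%).

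The make-up of the families changed more than their order. The DNMT3 genes summed to 2.32 RPKM on the exon scale in empty vector, 7.42 with SKM, 5.89 with OSKM and 6.43 with G3SKM. The share of Dnmt3b was 17.3% in empty vector and 38.2%, 41.9% and 42.3% in SKM, OSKM and G3SKM, and Dnmt3a exceeded Dnmt3b by 4.24-fold in empty vector and by 1.28-fold to 1.55-fold in the others. The TET genes summed to 2.81 RPKM in empty vector, 8.11 with SKM, 9.91 with OSKM and 6.90 with G3SKM. The share of Tet2 was 21.5%, 16.6%, 40.3% and 28.3% in this order, and that of Tet3 was 71.5%, 77.3%, 54.5% and 65.3%. Tet3 was thus the most abundant TET transcript in all 4 groups, and OSKM came closest to even, with Tet3 at 1.35-fold over Tet2 against 3.33-fold in empty vector.

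**Figure D3:**
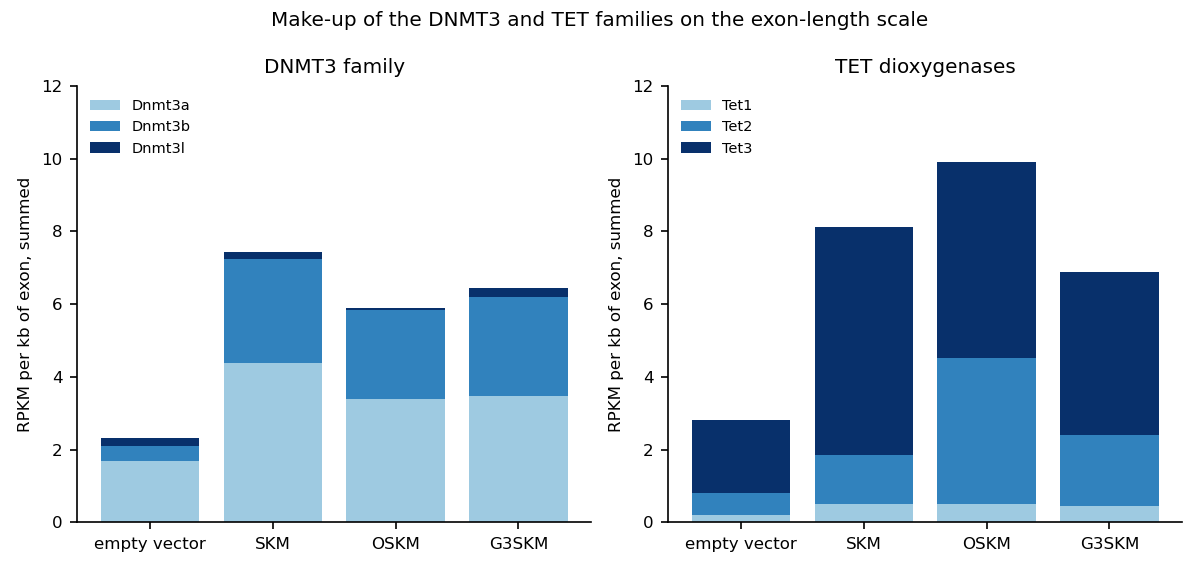
Stacked levels of the DNMT3 genes and of the TET genes in the 4 groups, in RPKM per kilobase of exon, on linear axes that start at 0; each bar segment is 1 value, with no error shown. Both sums were lowest in empty vector (2.32 and 2.81 RPKM), and the Tet2 segment was largest in OSKM, at 3.99 RPKM.

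Other genes followed the members with the widest range. Among 10713 protein-coding genes at 0.1 RPKM or more in all 4 groups, likeness was measured as the distance between centred log2 levels. To each level 0.01 RPKM was added first, so a distance of 0 is the same pattern only after this addition. The addition narrows the range of members with low levels, Dnmt3l most, and Dnmt3b through empty vector. Distances are therefore not comparable between members. The nearest to Dnmt3b was Msln, a surface protein of mesothelium, at 0.0374. Next came Pcolce2, an enhancer of collagen processing, at 0.0760, and Spint2, a protease inhibitor of epithelia, at 0.116. Msln had 1.88 RPKM in empty vector, 11.8 with SKM, 10.0 with OSKM and 11.3 with G3SKM. For Tet2 these were Fam122b at 0.290, Clu at 0.349 and Sh3bgrl2 at 0.361. Clu, a secreted chaperone, had 0.110 RPKM in empty vector, 0.296 with SKM, 0.941 with OSKM and 0.341 with G3SKM. For Dnmt3l, on few reads, these were Amigo3 at 0.214, Gng8 at 0.224 and Itga2b at 0.333. Without the addition Dnmt3l spanned 6.62-fold, and Amigo3, at 0.758 to 1.91 RPKM, spanned less. With 4 points per gene the distance is a description and says nothing of shared control.

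The other genes of the pathway are given by list, and each count against empty vector stands beside 20% of all genes higher and 13.2% lower in SKM, 17.5% and 8.95% in OSKM, and 21% and 7.81% in G3SKM. Of 14 listed partners that bring methyltransferases to chromatin 13 passed the filter, and 4 were higher in SKM, 2 in OSKM and 3 in G3SKM than in empty vector, with 0 lower. In OSKM and G3SKM these counts are near the share of all genes, and in SKM 2 remained with the GC trend removed. Cdca7l had 0.286 RPKM in empty vector, 1.06 with SKM, 1.20 with OSKM and 1.21 with G3SKM, a rise of 3.70-fold (3.52 to 3.89), 4.20-fold (4.002 to 4.40) and 4.25-fold (4.06 to 4.45). Cdca7, which with the remodeller HELLS opens nucleosomes to maintenance methylation, had 1.60 RPKM in empty vector, 3.37 with SKM, 4.83 with OSKM and 4.01 with G3SKM, and rose in all 3. Hells itself was under the rule in every comparison, at 1.14 RPKM in empty vector, 0.751 with SKM, 1.35 with OSKM and 1.49 with G3SKM. Ehmt2, a histone methyltransferase, and Dmap1, which binds DNMT1, were higher in SKM, at log2 ratios of 1.28 and 1.31, and neither call held with the GC trend removed. Uhrf2, the paralogue of Uhrf1, was higher in G3SKM, at a log2 ratio of 1.21. Dppa3, which in oocytes and germ cells keeps UHRF1 from chromatin, had 6 reads in empty vector, 0 with SKM, 0 with OSKM and 3 with G3SKM, where a count of 0 allows up to 3 reads.

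Several genes of base excision repair rose, and the 3 Gadd45 genes fell. Of 17 listed genes 15 passed the filter, and 6 were higher and 3 lower in SKM, 5 higher and 3 lower in OSKM, and 5 higher and 3 lower in G3SKM than in empty vector. The 4 genes higher in both OSKM and G3SKM were Ung, Neil2, Parp1 and Apobec3. Ung, the uracil glycosylase, had 0.979 RPKM in empty vector, 6.41 with SKM, 5.32 with OSKM and 4.38 with G3SKM, and rose 6.55-fold (6.09 to 7.05), 5.44-fold (5.06 to 5.84) and 4.47-fold (4.17 to 4.80). Parp1, which senses strand breaks, had 2.13 RPKM in empty vector, 6.46 with SKM, 6.96 with OSKM and 4.29 with G3SKM. It rose in all 3, and in G3SKM the call was lost with the GC trend removed (0.97).

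Neil2, a glycosylase of oxidised bases, rose from 51 reads in empty vector to 119 in SKM, 188 in OSKM and 326 in G3SKM. Its fold was 4.77 (3.43 to 6.80), 5.44 (4.004 to 7.62) and 6.94 (5.20 to 9.59). At 0.0405 RPKM in empty vector, Neil2 too passed the filter and was counted only through the groups with factors. Apobec3, a cytidine deaminase that acts on viral DNA, rose 2.39-fold, 3.28-fold and 2.43-fold in the same order. Neil1 was higher in SKM and G3SKM, Xrcc1 in SKM and Lig3 in OSKM, with log2 ratios of 1.42, 1.13, 1.24 and 1.07, and the call of Xrcc1 was lost with the GC trend removed. Lig3 and Polb then passed the rule in SKM against empty vector, at log2 ratios of 1.02 and 1.27. Apobec1 was the single gene of the list called between OSKM and G3SKM, at 2.25-fold (1.99 to 2.55) higher in OSKM.

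The Gadd45 genes encode stress-induced proteins that have been tied to TDG and active demethylation. Gadd45a had 11.1 RPKM in empty vector, 4.50 with SKM, 3.70 with OSKM and 3.17 with G3SKM. Gadd45b had 29.95 RPKM in empty vector, 6.90 with SKM, 7.57 with OSKM and 6.03 with G3SKM. Gadd45g had 72.1 RPKM in empty vector, 21.3 with SKM, 10.8 with OSKM and 18.0 with G3SKM. All 3 were highest in empty vector and fell in each group with factors. The smallest of the 9 falls was that of Gadd45a in SKM, at 2.46-fold (2.25 to 2.69), and the largest that of Gadd45g in OSKM, at 6.69-fold (6.33 to 7.06).

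Readers of methylated CpG moved little. Of 9 genes 1 was higher and 1 lower in SKM, 1 higher in OSKM and 1 higher in G3SKM than in empty vector. Mbd4, a glycosylase with a methyl-binding domain, had 0.287 RPKM in empty vector, 0.477 with SKM, 0.789 with OSKM and 0.836 with G3SKM. It rose 2.74-fold (2.43 to 3.10) in OSKM and 2.91-fold (2.59 to 3.27) in G3SKM. Mbd6 was higher and Zbtb33, which encodes the reader Kaiso, lower in SKM, and Zbtb33 was also higher in OSKM than in SKM. With the GC trend removed none of these 3 calls held, and Mbd4 passed the rule in SKM against empty vector, at 1.27 in place of 0.71.

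Among partners of TET, 1 of 7 was higher in SKM, 1 in OSKM and 2 in G3SKM, with 1 lower in G3SKM, against empty vector. Cxxc4, known to bind TET2 and to lower its protein, had 0.0852 RPKM in empty vector, 0.223 with SKM, 0.357 with OSKM and 0.236 with G3SKM. It rose 2.62-fold (2.21 to 3.12) in SKM, 4.19-fold (3.62 to 4.87) in OSKM and 2.77-fold (2.38 to 3.23) in G3SKM. Under 0.1 RPKM in empty vector, Cxxc4 passed the filter and entered these counts only through the groups with factors. With the GC trend removed the log2 ratio of SKM to empty vector went from 1.29 to 2.09 and that of OSKM to SKM from 0.65 to -0.11, so that OSKM was highest only as deposited. Ogt, the O-GlcNAc transferase that binds TET2 and TET3, had 1.78 RPKM in empty vector, 2.69 with SKM, 3.10 with OSKM and 5.57 with G3SKM. It was highest in G3SKM, at 3.14-fold (3.06 to 3.21) over empty vector and 2.07-fold (2.01 to 2.13) over SKM, and the second call was lost with the GC trend removed (0.50), where Ogt passed the rule in SKM against empty vector (1.23). Cxxc5 was the gene lower in G3SKM, at 2.68-fold.

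The other subunits of the complex that holds Mbd3 were flat. Of 11 NuRD genes, 1 was higher (Gatad2a) and 1 lower (Rbbp7) in SKM than in empty vector, both lost with the GC trend removed, and 0 were called in OSKM or G3SKM. Their median log2 ratio was 0.14 in SKM, 0.28 in OSKM and 0.20 in G3SKM, close to the medians of all genes (0.17, 0.28 and 0.28).

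Of 18 genes that supply the methyl donor and the TET cosubstrate, 4 were higher in SKM, 5 in OSKM and 5 in G3SKM than in empty vector, and 0 were lower. The counts in SKM and G3SKM are near the share of all genes called higher. Shmt1, Mtr, Mthfd1 and D2hgdh were higher in both OSKM and G3SKM. Shmt1, which feeds serine carbon into the folate cycle, had 0.717 RPKM in empty vector, 3.26 with SKM, 3.49 with OSKM and 3.21 with G3SKM, and rose 4.54-fold (4.30 to 4.80), 4.86-fold (4.62 to 5.12) and 4.47-fold (4.25 to 4.71). Mtr, methionine synthase, rose 3.12-fold (2.95 to 3.29) in OSKM and 2.34-fold (2.22 to 2.47) in G3SKM. D2hgdh, which clears hydroxyglutarate, an inhibitor of the TET enzymes, rose 2.18-fold in OSKM and 2.55-fold in G3SKM. Mthfd1 rose 2.62-fold in OSKM and 2.04-fold in G3SKM, the latter at the edge of the rule and lost with the GC trend removed (0.98). Mat2a, which makes the methyl donor, was called against SKM alone, 2.03-fold (1.97 to 2.09) higher in G3SKM, and the call was lost with the trend removed.

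Germline genes known to be silenced by promoter methylation had few reads, and their count of calls depended on the length scale. Of 17 listed genes at most 2 passed the filter in any comparison on the scale of deposited RPKM. On the exon scale 10 passed in OSKM against empty vector, with 7 higher and 0 lower, beside 22.1% and 9.51% of all genes. In G3SKM 9 passed, with 6 higher and 0 lower, beside 24.6% and 8.38%, and in SKM 8 passed, with 3 higher and 2 lower, beside 22.9% and 13.8%. The filter asks for 0.1 RPKM in either group, so a gene under it in empty vector can enter only through the other group. Piwil2, at 0.0239 RPKM in empty vector and 0.654 with OSKM on this scale, is such a gene. The splits are thus set in part by the filter and are no result about these genes as a set. Of the 17, 4 were at 0 in empty vector, 4 with SKM, 2 with OSKM and 1 with G3SKM. Stag3, a meiotic cohesin subunit, had 76 reads in empty vector, 155 with SKM, 415 with OSKM and 359 with G3SKM, and rose 8.12-fold (6.35 to 10.5) in OSKM and 5.17-fold (4.03 to 6.71) in G3SKM. Sycp3, a protein of the synaptonemal complex, was lower in SKM than in empty vector and higher in G3SKM than in SKM, and both calls were lost with the GC trend removed. Piwil2, under the filter, had 14 reads in empty vector, 130 with SKM, 258 with OSKM and 190 with G3SKM. Dazl had 1 to 7 reads, and Tex101, Mael, Asz1 and Rpl10l were at 0 in at least 2 groups.

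**Figure D4:**
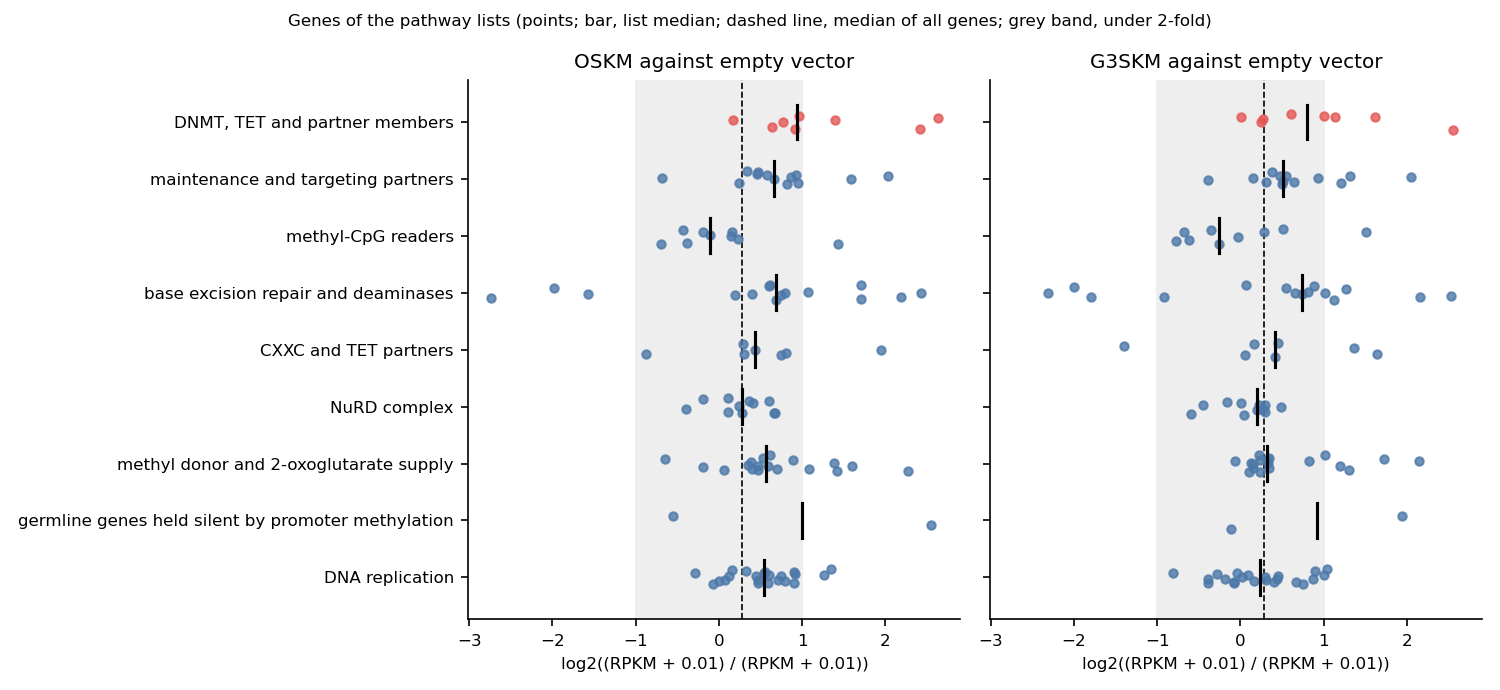
Log2 ratio to empty vector of each gene past the filter (points) in the 9 lists, in OSKM and in G3SKM, with the median of each list (bar) and of all genes (dashed line, 0.28 in both). The members' medians were 0.94 and 0.80, the points furthest to the left are the 3 Gadd45 genes, and the germline list has 2 points.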

How the data were processed

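RNA-seq levels of the 4 groups came from 3 deposited tables (SKM with empty vector, OSKM with SKM, G3SKM with SKM). Per the file headers, the authors' values are RPKM, and the deposited log2 ratio in each table differed from that of its columns by at most 0.0017. Per the labels' protocols, cDNA was amplified, sonicated and made into libraries. TopHat 1.3.0 and mm9 come from the submitters' processing notes. For the read counter, its annotation and strand setting, and how replicates were joined, the entry is: not given in the sources used here.

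The SKM column was identical in all tables, so OSKM, G3SKM and empty vector were set side by side across tables normalized in this shared way. A value of 0.001 was read as 0. Symbols, spans and transcript GC came from GENCODE M21, which held 25103 (91.0%) of the 27597 genes listed. Levels times gene span fell within 0.05 of whole multiples of a single step for 74.8% to 76.7% of genes with 1 to 1000 reads, which gave depth and reads per gene. The median ratio of span to exon length was 5.50. How deposited spans treat other gene versions was not tested, and reads of genes off whole multiples are approximate.

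Ratios, the rule of size and its filter are stated with the results. Folds are ratios of RPKM with 95% Clopper-Pearson intervals on recovered reads, and PCR reads are not independent molecules. The GC trend was removed as the median in 20 bins of transcript GC. The members and gene lists were chosen with earlier results of these data known. Named genes were the 10 members, the largest rise and fall per list in the 3 deposited comparisons, genes called the same way in OSKM and G3SKM against empty vector, and the 3 genes most alike in pattern to the 3 members of widest range. Hells, Dppa3, Ehmt2, Dmap1, Uhrf2, Neil1, Xrcc1, Lig3, Polb, Apobec1, Cxxc5, Mcm7, Gins1, Cdc6, Piwil2, Dazl, Tex101, Mael, Asz1 and Rpl10l were named after their values were seen. Some genes of the lists are counted but not reported here by name. Promoter windows are from RefSeq. The procedure was tested on simulated data. Python 3.11.15, pandas 2.3.3, numpy 2.4.6, SciPy 1.17.1 and matplotlib 3.10.9 were used.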

Additional observations from a re-analysis of the deposited data

How the results depend on the processing

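No paired analysis was possible because each group had 1 value per gene. The counts below are given in the order SKM, OSKM and G3SKM against empty vector, then OSKM against SKM, G3SKM against SKM and OSKM against G3SKM. As reported they were 4, 3, 4, 1, 0 and 1 members and 5828, 4692, 5151, 3217, 2731 and 2313 genes. Adding 1 RPKM with a filter at 1 RPKM gave 0 members throughout and 1515, 917, 1118, 427, 564 and 304 genes. A filter at 1 RPKM alone gave 1, 0, 0, 0, 0 and 0 members, since Dnmt3a, Dnmt3b and Tet2 stay under it, and 2942, 1918, 2247, 1169, 1199 and 675 genes. A rule of 1.5-fold gave 9840, 8337, 8878, 7104, 6913 and 4410 genes, with 7 members in OSKM against empty vector, 1 in G3SKM against SKM and 2 in OSKM against G3SKM. A rule of 4-fold gave 1991, 1791, 1845, 988, 801 and 912 genes, with 1 member in SKM and 1 in G3SKM against empty vector, 0 in OSKM against SKM and 0 in OSKM against G3SKM. Protein-coding genes alone gave 3683, 3067, 3222, 1600, 893 and 893 genes, since fewer were compared. No filter gave 7125 genes in OSKM against empty vector, 5115 in OSKM against SKM, 4344 in G3SKM against SKM and 4164 in OSKM against G3SKM, and 5, 2 and 2 members in OSKM against empty vector, SKM and G3SKM, as the exon scale did (5, 2 and 2), since Tet1 and Dnmt3l then count. A minimum of 100 reads gave 2063 genes in OSKM against SKM, 1472 in G3SKM against SKM and 1294 in OSKM against G3SKM. Removing the GC trend gave 1877 genes in OSKM against SKM and 1522 in G3SKM against SKM. In G3SKM against empty vector, a pseudocount of 0.1 RPKM, trimmed mean scaling and median centring each gave 2 members, and that pseudocount gave 0 members in OSKM against G3SKM. The cause of these shifts was not tested where none is named. The other counts, those with a pseudocount of 0.001 RPKM among them, stayed within 1.5 times. Of the log2 ratios of single members under the alternatives, 480 stayed within their counting interval and 135 moved by more. Alternatives that change only the filter, the rule or the genes compared cannot move a log2 ratio, and the 480 include them. That count is therefore no measure of robustness. No call of a member turned to the other direction.

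Depth limits Dnmt3l most, with 8 reads in OSKM, and Tet1 and Dnmt3b in empty vector, with 339 and 228 reads. Intervals cover counting alone. They say nothing of the spread between cultures, and with 1 value per group no replicate was left out in turn.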
